A study of Rattus norvegicus with 12 samples.

Results

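The genes described here are 44 enzymes and regulators of amino acid metabolism, followed in the whole rat pancreas in diabetes and under oral sodium tungstate. A member was measured by the probe sets that carry its symbol in the platform annotation, and where a gene had several, the probe set with the highest mean over the 12 arrays was used. Of the 44 genes, 42 were measured, 33 of them by 1 probe set and 9 by more than 1, out of 10411 genes with a probe set of their own among the 15866 tested. The alanine aminotransferase Gpt2 and the homogentisate dioxygenase Hgd had no probe set with that symbol and are not analysed here. The genes were listed by function, and the rule itself used no comparison between groups. The list was, however, chosen with earlier results of these data known. The shares of called genes given below therefore describe the lists and are no unbiased measure of an excess.

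The rats were adult male Wistar rats in 4 groups. The healthy animals were either untreated (HU) or treated (HT), and so were the diabetic animals (DU and DT). Diabetes was induced with streptozotocin (STZ), a toxin taken up by beta cells, in both the DU and the DT animals. HT and DT animals received sodium tungstate, 0.7 g/L in week 1 and 2 g/L over the following 4 to 5 weeks, whereas HU and DU animals were kept without it for 5 to 6 weeks. These doses are those of the sample labels, whereas the study's methods give a single concentration and no lower dose at the start. Each group had 3 arrays (numbered as HU1 to HU3 and so on), and the RNA of 3 rats was pooled for each of them. The p-values therefore measure the spread between pools.

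Amino acids serve the pancreas both as building blocks of secreted enzymes and as fuel. Acinar cells, which make up most of the organ, synthesize large amounts of digestive enzymes and import amino acids from the blood for this. Amino groups are moved between carbon skeletons by aminotransferases, and glutamine and glutamate act as the common carriers of nitrogen. Methionine is activated to S-adenosylmethionine, the cell's main methyl donor. After the methyl group is passed on, S-adenosylhomocysteine is split to homocysteine, which transsulfuration converts to cysteine. The urea cycle, transsulfuration and the breakdown of tyrosine, tryptophan and lysine are known chiefly from liver and kidney.

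The deposited arrays had medians of 6.63 to 6.70 on the log2 scale and correlations between arrays of 0.976 to 0.995. Their normalization sets the arrays to a common distribution, so these values do not measure RNA or array quality. In the DU arrays the mean log2 value of 6 beta cell markers was 7.62 to 7.86, compared with 9.64 to 9.79 in HU and 7.86 to 8.65 in DT. The 15 measured acinar markers had a mean of 13.97 to 13.98 in HU, 13.58 to 13.72 in DU and 13.95 to 14.04 in DT. As a list they stayed bright in every group, though not each gene did. Of these 15 genes 1 rose and 1 fell in DU vs. HU, and the amylase Amy2a3 measured 13.07 to 13.20 in HU and 6.45 to 8.78 in DU. Of the 6 beta cell markers, 4 fell. The mean of 5 other islet cell markers was 8.13 to 8.19 in DU and 7.89 to 8.10 in HU, and 1 of the 5 rose. The mean of 4 endothelium markers was 6.79 to 6.88 in DU and 6.93 to 7.16 in HU. That of 2 enterocyte markers was 6.65 to 6.75 in DU and 6.77 to 6.93 in HU, and none of the endothelium or enterocyte markers passed. The part of any of these markers in the DU results below was not tested. The mean of the 8 hepatocyte markers stayed between 6.71 and 6.91 in all 12 arrays, and none of the 8 passed the test in any comparison. In bulk tissue, fewer cells of a type and less RNA per cell cannot be told apart. DU and HU arrays were never scanned on the same day, and neither were DT and HU arrays. No difference within a day therefore exists for DU vs. HU or DT vs. HU. Chip lot 1 held arrays of HU, DU and DT, and its values are given below.

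The expression of 5 of the 42 members differed between DU and HU at an adjusted p under 0.05 (limma's moderated test, Benjamini-Hochberg over all 15866 probe sets). This is 11.9% of the members, beside 3.2% of all probe sets, of which 1.47% were higher and 1.73% lower. The 2 shares have unlike bases here and below. Members are the brightest probe set of a gene, with 2 under the 25th percentile of mean intensity. All probe sets include dim ones, 2771 with no symbol and several for some genes. Mat1a and Ahcy of the methionine cycle rose, and Bckdk of branched-chain amino acid breakdown, Aass of lysine breakdown and Asl of the urea cycle fell. The median log2 fold change of the members was -0.04, beside -0.02 over all probe sets. The arrays of 8 members in DU lay entirely above and those of 12 entirely below the HU arrays, beside 12.5% and 16.9% of all probe sets (29.4% in either direction).

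In DT vs. DU, 2 of the 42 members passed the same threshold, which is 4.76% beside 1.12% of all probe sets (0.655% higher and 0.46% lower). Gls2, a glutaminase, rose and Mat1a fell. The median log2 fold change was 0.09, beside 0.00 over all probe sets, and 26 of the 42 members had a positive value. The DT arrays of 13 members lay above and those of 4 members below the DU arrays, beside 7.58% and 6.28% of all probe sets (13.9% in either direction). In DT vs. HU only Gls2 passed (2.38% of the members, beside 1.32% of all probe sets, 0.756% of them higher).

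**Figure D1:**
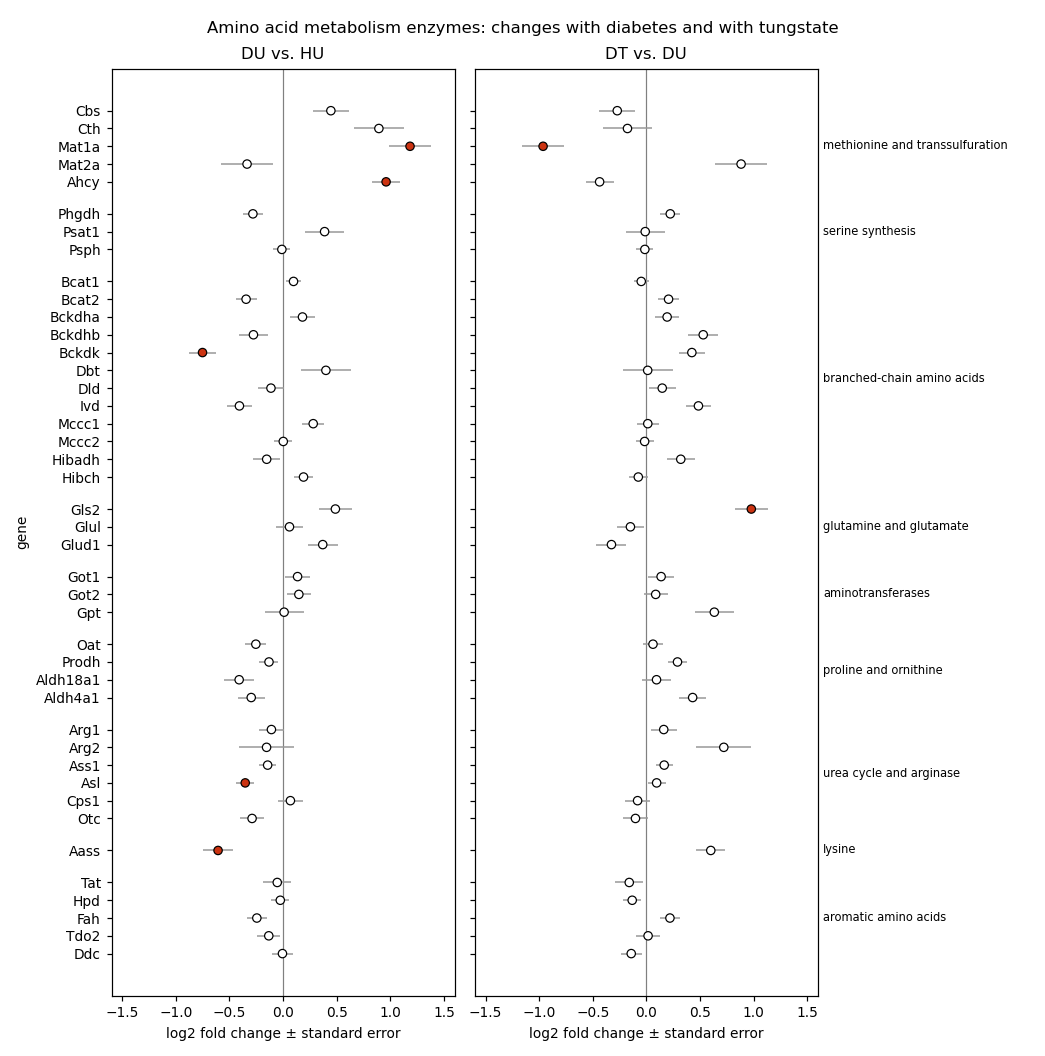
Log2 fold change (x axis, bars are standard errors) of the 42 measured members, grouped by role, in DU vs. HU (left) and DT vs. DU (right). Filled red points have an adjusted p under 0.05: Mat1a, Ahcy, Bckdk, Asl and Aass on the left, and Mat1a and Gls2 on the right.

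In DU vs. HU the 3 largest differences of any member were those of Mat1a, Ahcy and Cth, all of methionine use. Of the 5 enzymes of this group 2 rose, beside 1.47% of all probe sets, none fell, and the median log2 fold change was 0.89. The stretch around the transcription start of Mat1a and Ahcy is shown because the pair rose in the same comparison, and that of Gls2 because it rose in DT. The windows are RefSeq sequences of build GRCr8, 300 bases around each start with most of them upstream, written 5′ to 3′ on the gene's strand. Capitals mark the letters GGGCGG (GC box), CCAAT or TATAAA on either strand. Gls2 has 2 annotated starts.
Mat1a, chr16:17016918-17017217 (+): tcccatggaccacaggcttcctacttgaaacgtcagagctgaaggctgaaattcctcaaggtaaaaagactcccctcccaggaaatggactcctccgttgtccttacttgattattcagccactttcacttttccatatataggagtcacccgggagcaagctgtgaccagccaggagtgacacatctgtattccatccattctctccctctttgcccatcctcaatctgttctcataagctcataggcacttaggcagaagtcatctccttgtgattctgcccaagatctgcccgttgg
Ahcy, chr3:164044513-164044812 (-): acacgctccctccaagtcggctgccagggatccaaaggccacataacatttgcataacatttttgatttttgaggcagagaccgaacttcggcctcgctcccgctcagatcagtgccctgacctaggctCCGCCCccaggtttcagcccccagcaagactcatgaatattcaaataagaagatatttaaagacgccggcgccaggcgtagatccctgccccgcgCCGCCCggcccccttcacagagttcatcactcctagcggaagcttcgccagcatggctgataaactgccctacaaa
Gls2, first start, chr7:1201629-1201928 (+): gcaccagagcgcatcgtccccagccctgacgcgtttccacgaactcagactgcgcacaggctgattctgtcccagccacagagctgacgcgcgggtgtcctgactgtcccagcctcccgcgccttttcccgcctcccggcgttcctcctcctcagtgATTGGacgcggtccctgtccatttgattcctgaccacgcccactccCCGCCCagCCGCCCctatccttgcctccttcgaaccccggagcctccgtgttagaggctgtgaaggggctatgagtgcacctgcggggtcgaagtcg
Gls2, second start, chr7:1206874-1207173 (+): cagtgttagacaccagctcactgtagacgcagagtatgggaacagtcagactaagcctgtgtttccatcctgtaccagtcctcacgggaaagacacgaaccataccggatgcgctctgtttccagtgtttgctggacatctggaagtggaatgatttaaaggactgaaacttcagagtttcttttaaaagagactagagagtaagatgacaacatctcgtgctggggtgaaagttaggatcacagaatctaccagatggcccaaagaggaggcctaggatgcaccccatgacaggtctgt
The Mat1a window held none of the 3 motifs and 48.7% G and C, whereas the Ahcy window held 2 GC boxes and 55.3% G and C. The first Gls2 window held 2 GC boxes and 1 CCAAT box (65.0% G and C), and the second held none of the 3 motifs (47.7% G and C). A promoter window was found for 37 of the 44 members, with 42 windows in all. A GC box was in 57.1% of these, beside 33.1% of 33469 rat windows, a CCAAT box in 52.4% beside 37.5%, and TATAAA in 16.7% beside 14.2%. The matches describe the letters of the windows and are not binding sites shown in these samples.

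Mat1a encodes the methionine adenosyltransferase best known from liver, which makes S-adenosylmethionine. Its log2 intensities in HU were 8.68, 8.43 and 8.85 (8.65 ± 0.21, SD, n = 3 pools), and in HT 8.59, 8.88 and 8.49 (8.65 ± 0.20). They were 9.85, 9.57 and 10.09 in DU (9.84 ± 0.26) and 9.09, 9.16 and 8.37 in DT (8.87 ± 0.44). All 3 DU arrays lay above every array of the other groups, and the DT arrays overlapped with HU and HT. The rise in DU vs. HU was 2.27-fold (log2 fold change 1.18, SE 0.20, adjusted p = 0.00495). In DT vs. DU expression fell by 0.96 on the log2 scale (SE 0.20, adjusted p = 0.0310), and DT vs. HU differed by 0.22 (adjusted p = 0.600). Within chip lot 1 the DU arrays exceeded the HU array by 0.86, and when scan day entered the model as a block the difference was 0.48 (adjusted p = 0.691). The fall in DT did not pass without HU1, HT1, DU1, DU3 or DT3, each left out in turn (adjusted p = 0.0528 to 0.123), and without the 3 arrays of chip lot 3 it was -0.58 (adjusted p = 0.106).

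Ahcy, the hydrolase that splits S-adenosylhomocysteine into adenosine and homocysteine, was also higher in DU. Its log2 intensities were 10.16, 10.40 and 10.00 in HU (10.19 ± 0.20, SD, n = 3 pools) and 9.89, 9.86 and 10.06 in HT (9.94 ± 0.10). They were 11.29, 10.96 and 11.20 in DU (11.15 ± 0.17) and 10.95, 10.67 and 10.51 in DT (10.71 ± 0.22). The groups therefore stood in the order DU, DT and then both healthy groups, and the DT arrays overlapped with neither DU nor HU. The rise in DU vs. HU was 1.95-fold (log2 fold change 0.96, SE 0.13, adjusted p = 0.00107). The value in DT vs. DU was -0.44 (adjusted p = 0.193) and in DT vs. HU 0.53 (adjusted p = 0.0691), neither past the threshold. The difference between DU and HU was 1.13 within chip lot 1 and 0.81 under a scan-day block (adjusted p = 0.416).

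**Figure D2:**
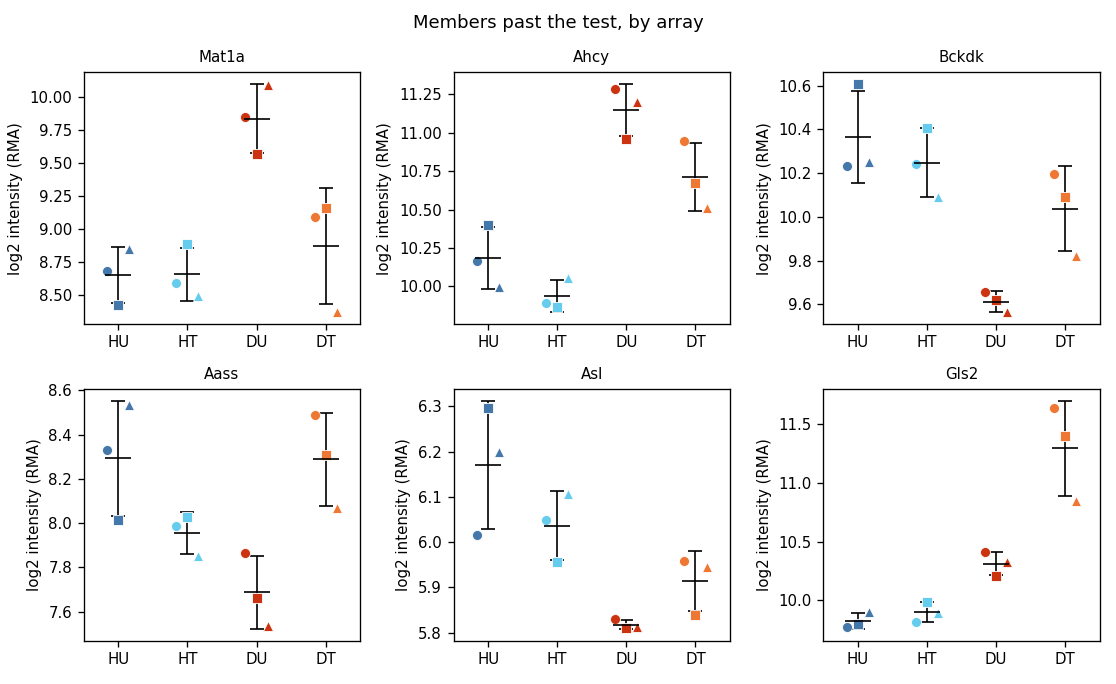
Log2 intensity (y axis) of the 6 members that passed the test in at least 1 comparison, by group (x axis). Circles, squares and triangles are pools 1, 2 and 3, and bars are the mean ± SD of 3 pools. The DU arrays of Mat1a (9.57 to 10.09) stand above all others, and the DT arrays of Gls2 (10.84 to 11.64) above all others.

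The transsulfuration enzymes had positive values in DU vs. HU, but neither passed. Cth (cystathionine gamma-lyase), which releases cysteine, measured 8.64, 7.80 and 8.41 in HU, 9.14, 9.03 and 9.37 in DU, and 9.29, 9.25 and 8.47 in DT. Its DU arrays lay above all HU arrays, and DT3 stood below DT1 and DT2. The log2 fold change was 0.89 in DU vs. HU (95% interval 0.39 to 1.39, adjusted p = 0.0550) and 0.72 in DT vs. HU (adjusted p = 0.149). Cbs (cystathionine beta-synthase), the step before it, had 0.45 in DU vs. HU (adjusted p = 0.163).

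Mat2a, the methionine adenosyltransferase of most tissues outside the liver, had values of the opposite sign on its brighter probe set. The DT arrays measured 7.67, 7.32 and 6.92 and the DU arrays 6.73, 6.37 and 6.17, so the groups did not overlap. The log2 fold change was 0.88 in DT vs. DU (SE 0.24, adjusted p = 0.141) and -0.34 in DU vs. HU (adjusted p = 0.471). A further Mat2a probe set gave 0.06 in DT vs. DU (adjusted p = 0.935), so the probe sets differed in size and neither passed.

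**Figure D3:**
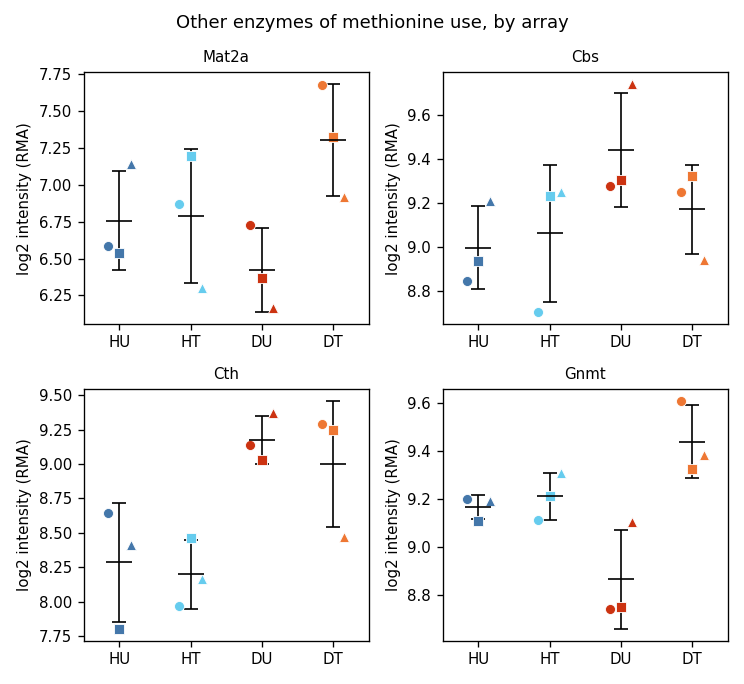
Log2 intensity (y axis) of Mat2a, Cbs, Cth and Gnmt by group (x axis), with pools 1, 2 and 3 as circles, squares and triangles and bars for the mean ± SD. Cth is 9.03 to 9.37 in DU and 7.80 to 8.64 in HU, and Gnmt is 8.74 to 9.10 in DU and 9.33 to 9.61 in DT.

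Glutamine and glutamate carry nitrogen between tissues, and of the 3 members of this group Gls2 rose in DT. Gls2 is the glutaminase known from liver, which releases ammonia from glutamine and leaves glutamate. Its log2 intensities were 9.77, 9.80 and 9.90 in HU (9.83 ± 0.07, SD, n = 3 pools) and 9.82, 9.99 and 9.89 in HT (9.90 ± 0.08). They were 10.41, 10.21 and 10.32 in DU (10.31 ± 0.10) and 11.64, 11.40 and 10.84 in DT (11.29 ± 0.41). The DU arrays lay above both healthy groups and the DT arrays above DU, with DT3 the lowest of the 3. The rise was 1.97-fold in DT vs. DU (log2 fold change 0.98, SE 0.15, adjusted p = 0.00437) and 2.76-fold in DT vs. HU (1.47, SE 0.15, adjusted p = 0.000460). In DU vs. HU the value was 0.49 (adjusted p = 0.0975), and in HT vs. HU 0.07.

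Within scan day 1 the DT arrays exceeded the DU array in Gls2 by 1.11, within chip lot 1 by 1.21 and within chip lot 3 by 0.52. The rise in DT vs. DU passed without any 1 of the 12 arrays and did not pass when only the 6 arrays compared were fitted (adjusted p = 0.0753). The rise in DT vs. HU was 0.95 under a scan-day block (adjusted p = 0.347), though no DT array shared a scan day with an HU array. In chip lot 1, DT1 and DT2 measured 11.64 and 11.40 and HU3 measured 9.90. Leukocyte and stellate cell markers differed among the DT arrays, with a mean of 9 leukocyte markers of 6.88 to 8.11 and of 10 stellate cell markers of 7.61 to 8.40, beside 7.53 to 8.01 and 8.23 to 8.53 in DU. In DT vs. DU none of these markers passed, whereas 1 of 15 acinar and 1 of 6 beta cell markers were higher. In DT vs. HU, 2 of the 10 stellate cell markers and 4 of the 6 beta cell markers were lower and 1 acinar marker higher. The part of these markers in the DT results was not tested.

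Glud1 (glutamate dehydrogenase), which joins glutamate to the citric acid cycle, gave a different call on its 2 probe sets. The probe set chosen by the rule differed by 0.37 between DU and HU (adjusted p = 0.164) and by -0.33 between DT and DU (adjusted p = 0.455). The dimmer probe set measured 7.89, 7.89 and 7.84 in HU, 8.78, 8.56 and 8.83 in DU, and 8.38, 7.64 and 7.80 in DT. On it Glud1 rose by 0.85 in DU vs. HU (SE 0.15, adjusted p = 0.00710) and fell by 0.78 in DT vs. DU (SE 0.15, adjusted p = 0.0212). Both comparisons had the same direction on either probe set. The difference between the tungstate effects in diabetic and in healthy animals did not, with 0.09 on the brighter and -0.61 on the dimmer probe set (adjusted p = 0.931 and 0.389). DT1 stood above DT2 and DT3 on both.

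Glul (glutamine synthetase), which makes glutamine from glutamate and ammonia, was measured by 3 probe sets, and none passed in either comparison. In DT vs. DU they gave -0.15, -0.54 and -1.07 (adjusted p = 0.802, 0.156 and 0.116). The probe set with the highest mean over the arrays was the one with the smallest value. The probe set with -0.54 was brighter than it in HU and DU (8.27 and 8.20, beside 8.07 and 8.13). In DT it was dimmer (7.67 beside 7.98). In DT vs. HU the 3 probe sets gave -0.09, -0.61 and -0.61 in the same order (adjusted p = 0.754, 0.0693 and 0.299).

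**Figure D4:**
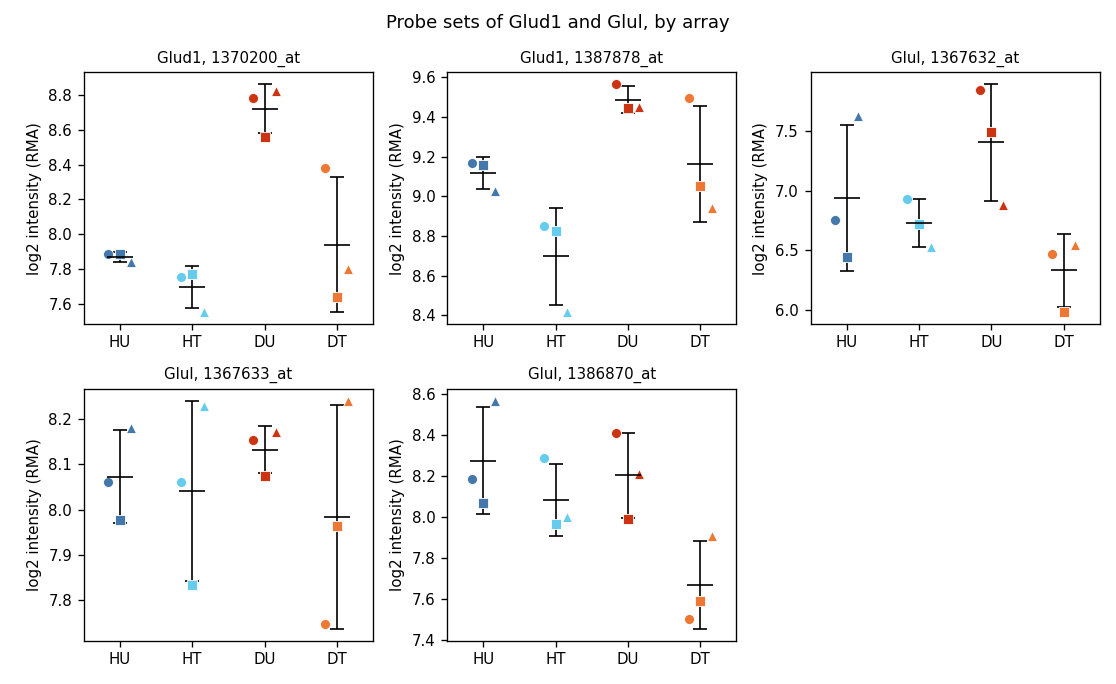
Log2 intensity (y axis) by group (x axis) of the 2 probe sets of Glud1 and the 3 of Glul, with pools 1, 2 and 3 as circles, squares and triangles and bars for the mean ± SD. On the first Glud1 probe set the DU arrays (8.56 to 8.83) stand above the HU arrays (7.84 to 7.89), and the Glul probe sets differ in how far DT lies below DU.

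Of the 12 measured genes of branched-chain amino acid breakdown, 1 fell in DU vs. HU (8.33%, beside 1.73% of all probe sets), none rose, and the median log2 fold change was -0.06. Bckdk is the kinase that switches off the branched-chain ketoacid dehydrogenase, the committed step of leucine, isoleucine and valine breakdown. It measured 10.23, 10.61 and 10.25 in HU (10.36 ± 0.21, SD, n = 3 pools) and 10.24, 10.41 and 10.09 in HT (10.25 ± 0.16). The DU arrays measured 9.66, 9.62 and 9.56 (9.61 ± 0.05) and the DT arrays 10.20, 10.09 and 9.82 (10.04 ± 0.19). The DU arrays were the lowest of all, and the DT arrays lay between DU and HU without overlapping either. Expression fell by 0.75 on the log2 scale in DU vs. HU, a 1.68-fold difference (SE 0.12, adjusted p = 0.00425). DT vs. DU gave 0.42 (adjusted p = 0.174) and DT vs. HU -0.33 (adjusted p = 0.207). The difference between DU and HU was -0.62 within chip lot 1 and -0.69 under a scan-day block (adjusted p = 0.546).

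The subunits of the dehydrogenase itself did not pass in any comparison. Bckdhb, a subunit of its decarboxylase, measured 9.44, 9.24 and 9.03 in DU and 10.09, 9.51 and 9.70 in DT, at a log2 fold change of 0.53 in DT vs. DU (adjusted p = 0.116). Bckdha, the partner subunit, differed by 0.18 between DU and HU and by 0.37 between DT and HU (adjusted p = 0.126). Dbt, the acyltransferase core, gave 0.40 in DU vs. HU (adjusted p = 0.363) with DT arrays spread from 7.98 to 9.09. Dld, the dehydrogenase subunit shared with other complexes, gave -0.11 and lay below the array median in every array.

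Among the later steps, Ivd (isovaleryl-CoA dehydrogenase of leucine breakdown) came nearest to the threshold. Its DU arrays (7.82, 7.74 and 7.52) lay below the HU arrays (7.92, 8.03 and 8.34) and the DT arrays (8.18, 8.10 and 8.26). The log2 fold change was -0.41 in DU vs. HU (adjusted p = 0.0737) and 0.49 in DT vs. DU (adjusted p = 0.0701). Bcat2, the mitochondrial aminotransferase that starts the pathway, gave -0.34 in DU vs. HU (adjusted p = 0.0742), with DU arrays of 8.78 to 8.90 and HU arrays of 9.10 to 9.35. Its cytosolic relative Bcat1 gave 0.10 and lay below the array median in every array. Mccc1 and Mccc2, the subunits of methylcrotonyl-CoA carboxylase in leucine breakdown, gave 0.28 (adjusted p = 0.149) and 0.00. Hibch and Hibadh, of valine breakdown, gave 0.19 and -0.15 in DU vs. HU, and Hibadh 0.32 in DT vs. DU (adjusted p = 0.406).

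Aass, the bifunctional enzyme that opens lysine breakdown in mitochondria, was lower in DU. It measured 8.33, 8.02 and 8.53 in HU (8.29 ± 0.26, SD, n = 3 pools) and 7.99, 8.03 and 7.85 in HT (7.96 ± 0.09). The values were 7.86, 7.66 and 7.53 in DU (7.69 ± 0.17) and 8.49, 8.31 and 8.07 in DT (8.29 ± 0.21). DU lay below HU and DT without overlap, and DT and HU overlapped. Expression fell by 0.61 on the log2 scale in DU vs. HU, a 1.52-fold difference (SE 0.14, adjusted p = 0.0312), and DT vs. DU gave 0.60 (SE 0.14, adjusted p = 0.0571). The difference between DU and HU was -0.77 within chip lot 1 and -0.84 under a scan-day block (adjusted p = 0.409), and it did not pass without HU1, HU3, DU2 or DU3, each left out in turn (adjusted p = 0.0960 to 0.101).

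The urea cycle has its full set of enzymes in liver, whereas Asl and Ass1 serve arginine synthesis in many tissues. Of the 6 measured members of this group, 1 fell in DU vs. HU (16.7%, beside 1.73% of all probe sets) and none rose, with a median log2 fold change of -0.15. Asl, which releases arginine from argininosuccinate, measured 6.02, 6.30 and 6.20 in HU and 6.05, 5.96 and 6.11 in HT. It measured 5.83, 5.81 and 5.81 in DU and 5.96, 5.84 and 5.94 in DT. The DU arrays were the lowest, close together, and the difference was small beside those of the other called members. Every Asl value lay below the array medians (6.63 to 6.70), and whether the signal exceeded background was not tested. Expression fell by 0.35 on the log2 scale, a 1.28-fold difference (SE 0.08, adjusted p = 0.0377). A further Asl probe set gave -0.16 (adjusted p = 0.314), and the call on the first was lost without HU2, HU3, HT2, DU1, DU2 or DU3 (adjusted p = 0.0524 to 0.135). Of 12 other alternatives, the call held in 2, without dim probe sets and with trend and robust (0.0443 and 0.0427).

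The other members of the cycle did not pass. Otc (ornithine carbamoyltransferase) gave -0.29 in DU vs. HU (adjusted p = 0.178) and -0.39 in DT vs. HU (adjusted p = 0.114), while its DU arrays (5.70 to 5.82) lay below the HU arrays (5.95 to 6.19). Ass1, the step before Asl, gave -0.14 in DU vs. HU, and Cps1, the entry step of ammonia, gave 0.07. Otc and Cps1 lay below the array median in every array, as Asl did. Arg1 (liver-type arginase) was among the 2 members under the 25th percentile of mean intensity, with -0.11 in DU vs. HU. Arg2, the mitochondrial arginase, gave 0.72 in DT vs. DU (adjusted p = 0.317), with DT arrays of 8.76, 7.77 and 7.39 that overlapped with DU through DT3.

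Proline and ornithine are linked through a shared semialdehyde, and all 4 enzymes of this group had DU arrays below their HU arrays, but none passed the test. Over all probe sets the DU arrays lay entirely below in 16.9%. In DU vs. HU the log2 fold changes were -0.41 for Aldh18a1, which makes the semialdehyde from glutamate (adjusted p = 0.121), and -0.30 for Aldh4a1, which turns it back into glutamate (adjusted p = 0.205). They were -0.25 for Oat, the ornithine aminotransferase (adjusted p = 0.168), and -0.13 for Prodh, the proline dehydrogenase (adjusted p = 0.435). In DT vs. DU all 4 values were positive, from 0.06 to 0.43, and none passed. A further Prodh probe set went the other way, with 0.37 in DU vs. HU (adjusted p = 0.0453), so the direction of Prodh depended on the probe set.

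The aminotransferases of aspartate and alanine did not pass in any comparison. Got1 (cytosolic) and Got2 (mitochondrial) gave 0.14 and 0.15 in DU vs. HU. Gpt, the alanine aminotransferase, measured 9.36, 8.61 and 8.77 in DT and 8.21, 8.34 and 8.28 in DU, at a log2 fold change of 0.63 in DT vs. DU (SE 0.18, adjusted p = 0.173). All 3 DT arrays of Gpt lay above the DU and HU arrays.

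Serine synthesis from a glycolytic intermediate takes the steps of Phgdh, Psat1 and Psph, and none of them passed. Phgdh, the first step, measured 9.39, 9.21 and 9.42 in DU, below the HU arrays of 9.56 to 9.74, at a log2 fold change of -0.28 (adjusted p = 0.113). Psat1, the second step, gave 0.39 (adjusted p = 0.248) with DU arrays spread from 9.75 to 10.56, and Psph, the last step, gave -0.01. The values of the steps therefore differed in sign.

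Of the 5 measured enzymes of aromatic amino acids, none passed, and the log2 fold changes in DU vs. HU lay between -0.24 and -0.01. Fah, the last step of tyrosine breakdown, was the one with DU arrays (7.52 to 7.59) below the HU arrays (7.68 to 7.99), at -0.24 (adjusted p = 0.173). Tat and Hpd, the first steps of that pathway, gave -0.05 and -0.03, with Hpd below the array median in every array. Tdo2, which opens tryptophan breakdown and was also among the dim members, gave -0.13. Ddc, the decarboxylase that makes dopamine and serotonin and is present in islet cells, gave -0.01 (95% interval -0.22 to 0.21). A further Ddc probe set gave -0.14 (95% interval -0.40 to 0.12). In DT vs. DU the signs differed, with -0.14 on the chosen and 0.09 on the further probe set. The mean of the 6 beta cell markers was lower, and that of the 5 other islet cell markers higher, in every DU array than in every HU array.

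Tungstate in healthy animals was compared as HT vs. HU, and none of the 42 members passed, beside 0.0063% of all probe sets (limma). At an unadjusted p under 0.05 there were 2 members, both with lower values in HT (5.41% of all probe sets in either direction), and by a B-statistic above 0 there were none. The log2 fold changes ran from -0.42 to 0.30, with a median of -0.05. The lowest value was that of Glud1, whose HT arrays of 8.85, 8.82 and 8.42 lay below the HU arrays of 9.17, 9.16 and 9.03 (adjusted p = 0.871). Aass was the other member, at -0.34 (adjusted p = 0.871). The HT arrays of Glud1, Bckdhb, Hibadh and Psph lay below HU and those of no member above it, beside 5.83% and 5.74% of all probe sets (11.6% in either direction).

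Whether tungstate acted differently in diabetic and healthy animals was tested as DT vs. DU minus HT vs. HU. None of the 42 members passed in limma, beside 0.422% of all probe sets, whereas 10 had an unadjusted p under 0.05 (8.75% of all probe sets), and a B-statistic above 0 gave 1 member, Aass. The difference was 0.94 for Aass (SE 0.19, adjusted p = 0.0639), 0.91 for Gls2 (adjusted p = 0.134), 0.80 for Bckdhb (adjusted p = 0.155) and -0.97 for Mat1a (adjusted p = 0.257). The fall of Mat1a and the rise of Gls2 in DT vs. DU are therefore not shown to differ from the effect of tungstate in healthy animals. Of the 42 members, 30 had a positive difference, with a median of 0.17, beside 0.00 over all probe sets.

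A wider list of other amino acid genes gives the surroundings of these enzymes, and 58 of its genes were measured. In DU vs. HU, 2 rose and none fell (3.45%, beside 3.2% of all probe sets), and in DT vs. DU, 1 rose and 2 fell (5.17%, beside 1.12%). Tdh, the threonine dehydrogenase, measured 8.00, 7.18 and 6.68 in HU, 11.71, 11.59 and 11.18 in DU, and 6.52, 6.47 and 6.58 in DT. It thus rose in DU (log2 fold change 4.21, adjusted p = 1.4e-06) and in DT fell by 4.97 on the log2 scale against DU (adjusted p = 3.77e-07). Hsd17b10, a mitochondrial dehydrogenase that takes part in isoleucine breakdown, rose by 0.73 in DU vs. HU (SE 0.13, adjusted p = 0.00573), and did not pass under a chip-lot block (0.0581) or a scan-day block (0.584).

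Besides Tdh, the genes of that list that passed in DT vs. DU were Gnmt and Gamt, both methyltransferases. Gnmt, which uses S-adenosylmethionine to methylate glycine, measured 8.74, 8.75 and 9.10 in DU and 9.61, 9.33 and 9.38 in DT, and rose by 0.57 in DT vs. DU (SE 0.11, adjusted p = 0.0189). This call was lost without DU1, DU2 or DT1 (adjusted p = 0.0903 to 0.110). Gamt, which uses the same donor to make creatine, measured 9.56, 9.59 and 9.92 in DU and 9.09, 9.15 and 9.05 in DT. It fell by 0.59 in DT vs. DU (SE 0.10, adjusted p = 0.00744), and its DT arrays were the lowest of all 12. Under a scan-day block the difference did not pass (adjusted p = 0.203).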

How the data were processed

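The authors hybridized RNA of whole pancreas to 12 Affymetrix RAE230-A arrays and deposited log2 intensities made with the affy package by RMA, which adjusts the background, sets the arrays to a common distribution and summarizes the probes of each set. Other items, among them scan day and chip lot, were read from the deposited array records and coded. Arrays have no read depth, and their number limits the precision.

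A mean per group was fitted with limma 3.58.1 in R 4.3.3 to 15866 probe sets, with 57 controls left out, and p-values were adjusted by Benjamini-Hochberg within each comparison. A gene passed at an adjusted p under 0.05. The fit was also run on simulated data that held no effect of scan day or chip lot. That run therefore says nothing about how these bear on the calls. The members and lists were chosen with earlier results of these data known. All members are named, with every array for those that passed, and of the other amino acid genes those that passed in DU vs. HU or DT vs. DU. The wider list held 87 symbols, with older and newer names of some genes. Alternatives changed the normalization, dim filter, arrays, variance model, blocks, call rule and probe set. Leaving out chip lot 3 was chosen after seeing the data.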

Additional observations from a re-analysis of the deposited data

Results flagged for a closer look

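The effect of tungstate on Tdh (threonine dehydrogenase) differed between diabetic and healthy animals. DT vs. DU minus HT vs. HU was -4.58 on the log2 scale (limma, adjusted p = 6.65e-05), and all 3 DT arrays lay below all 3 DU arrays, whereas the HT and HU arrays overlapped. None of the 42 members had such a difference past the threshold.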

How the results depend on the processing

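No member that passed on its chosen probe set, and none of the other genes called in DU vs. HU or DT vs. DU, changed its direction under an alternative. A further, dim Prodh probe set that passed in DU vs. HU (0.37) had the opposite direction to the chosen one (-0.13). The median of the members in DT vs. HU went from 0.05 to -0.01 under a scan-day block. In DU vs. HU, 5 members passed, compared with 3 by a B-statistic above 0 (Bckdk, Mat1a and Ahcy) and 0 under a scan-day block, where the median was -0.20 in place of -0.04. That block compares DU with HU, and DT with HU, only through the treated arrays scanned on shared days. Of the DU arrays only DU1 shared a scan day with other arrays, so DU enters these differences through DU1 alone. In DT vs. DU, 2 members passed, compared with 0 when only the 6 arrays compared were fitted, 1 under the scan-day block (Gls2), 5 with the chip lot as a block (Gls2, Ivd, Mat1a, Mat2a and Aass) and 1 with the replicate block (Gls2). In DT vs. HU, 1 passed, compared with 0 under the scan-day block and 4 without the 3 arrays of chip lot 3 (Gls2, Bckdha, Cth and Ahcy). In the interaction 0 passed, compared with 1 by a B-statistic above 0, without dim probe sets, with trend and robust, under the chip-lot block, and without chip lot 3. Why these counts moved was not tested.

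When each array was left out in turn, the count was 3 to 7 in DU vs. HU (3 without HU3, DU2 or DU3), 1 to 4 in DT vs. DU (1 without HU1, HT1, DU1 or DU3, and 4 without HU3), 1 to 4 in DT vs. HU (4 without DT3), 0 in HT vs. HU and 0 to 2 in the interaction (1 without HU2, 2 without DT3). Same-numbered arrays did not deviate together as a rule, with 5 of 18 pairs above a correlation of 0.1 (-0.29 to 0.31). The highest values were those of HU2 with DT2 (0.314) and HU3 with DT3 (0.312). With so few arrays the check shows no general pairing by number and cannot exclude one. With the replicate block, 4 members passed in DU vs. HU, 1 in DT vs. HU, 0 in HT vs. HU and 0 in the interaction.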
